A study of Mus musculus with 15 samples.

Results

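The genes described here encode enzymes and a carrier that make fatty acids from small carbon units: Slc25a1, Acly, Acss2, Acaca, Acacb, Fasn, Me1, Elovl6 and Aacs. They were chosen by name, with earlier results of these data known, and all 9 were found among the 35373 genes of the deposited raw count table. The study profiled intradermal adipocytes, the fat cells that lie within the skin, by bulk RNA sequencing. Cells were taken from the floating fraction of collagenase-digested dorsal mouse skin, with and without activation of the Wnt/β-catenin pathway. All mice carried Rosa26rtTA on both alleles and 1 copy of TetOBcat, a doxycycline-responsive β-catenin transgene, and all were given doxycycline, at 6 g/kg of food and 2 mg/mL of drinking water. Mice of the Wnt groups also carried EngrailedCre, so that the transgene could be switched on only in the lineage of Engrailed-expressing cells, whereas the controls, labelled wild type, lacked it. The controls were of postnatal day 23 (P23 controls, n = 3) or 26 (P26 controls, n = 3). Activation had lasted 2 days in mice of day 23 (2-day Wnt, n = 4) or 5 days in mice of day 26 (5-day Wnt, n = 5). Length of activation and age therefore went together, and each length was compared with the controls of its own age. Replicates are labelled as biological, and the labels give neither the sex nor the litter of the mice.

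De novo lipogenesis builds fatty acids in the cytosol from acetyl-CoA. Citrate leaves the mitochondria through the carrier encoded by Slc25a1 and is cleaved to acetyl-CoA by Acly, while Acss2 makes acetyl-CoA from acetate. The acetyl-CoA carboxylases convert acetyl-CoA to malonyl-CoA, from which Fasn builds palmitate with NADPH that Me1 helps to supply, and Elovl6 lengthens palmitate. Not all members are cytosolic proteins: the product of Slc25a1 lies in the inner mitochondrial membrane, that of Elovl6 in the endoplasmic reticulum, and that of Acacb at the outer face of mitochondria. Adipocytes and liver are main sites of the pathway, which insulin and glucose stimulate through the factors SREBP1c and ChREBP.

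Total counts were 11383421 to 38501753 per library, and no value of a member rested on fewer than 29 counts. Markers of adipocytes (8 of 8 detected) summed to 25350 to 36056 CPM (counts of a gene scaled to the normalized library size) in P23 controls and 12343 to 26980 at 2 days. They summed to 5376 to 32945 CPM in P26 controls and 5983 to 24131 CPM at 5 days. The lowest sums belonged to P26 control replicate 1 and 5-day Wnt replicate 5, in which the adipocyte marker Adipoq stood at 369.7 and 722 CPM, against 1404 to 5259 CPM in the other libraries. Stromal markers (8 of 8 detected) summed to 9256 to 10068 CPM in P23 controls, 9606 to 27973 at 2 days, 5264 to 24451 in P26 controls and 15363 to 79831 at 5 days. Markers of sebaceous glands, which also make fatty acids, summed to 302 to 1792 CPM over all libraries, with 1 of the 9 at 0 in every P23 control and 1 in every P26 control. Leukocyte markers summed to 179 to 1609 CPM and keratinocyte markers to 19.8 to 6369 CPM, the latter highest in P26 control replicate 1. Summed hair follicle markers reached 4652 CPM in 2-day Wnt replicate 1 and 879 CPM in P26 control replicate 1, and were at most 278 CPM elsewhere. Mitochondrially encoded transcripts took 31.7% of the counts in 2-day Wnt replicate 1 and 3.69% to 19.4% in the others. The deposited sample sheet lists the library labelled 2-day Wnt replicate 1 as a control, and its library name carries the letter of the controls, against its title and genotype. The title was followed here, and values under the sheet's grouping are given for some of the results below. Ctnnb1, which encodes β-catenin, had a log2 fold change of 0.32 ± 0.28 (SE) averaged over both ages, not past the threshold (edgeR adjusted p = 0.923). How much these differences between libraries contribute to the results below was not tested. In bulk RNA, fewer adipocytes and less RNA per adipocyte cannot be told apart.

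Sex-linked transcripts also divided the libraries. The Y-linked genes Ddx3y, Eif2s3y, Kdm5d and Uty summed to 44.8 to 149.8 CPM in 10 libraries, in which Xist, the RNA that silences the inactive X, had no counts. In the other 5 the sum was at most 1.39 CPM and Xist was at 11.3 to 74.0 CPM. Those 5 were P23 control replicates 2 and 3, P26 control replicates 2 and 3 and 2-day Wnt replicate 1. Libraries with Y-linked transcripts were thus 8 of the 9 Wnt libraries and 2 of the 6 controls, so this division and activation went largely together. The Wnt target Axin2, read as a check of activation, followed the division rather than the titles. It stood at 39.8, 8.36 and 5.48 CPM in the P23 controls and at 10.01, 27.6, 65.0 and 43.5 CPM at 2 days. Its level was 34.8, 9.07 and 4.17 CPM in P26 controls and 28.2, 62.8, 37.2, 43.6 and 44.8 CPM after 5 days. The 10 libraries with Y-linked transcripts, P23 control replicate 1 and P26 control replicate 1 among them, thus held 27.6 to 65.0 CPM. The other 5, with the library labelled 2-day Wnt replicate 1, held 4.17 to 10.01 CPM. Axin2 therefore went against the titles of these 3 libraries, and the average log2 fold change by title was 1.23 ± 0.52 (SE; edgeR adjusted p = 0.568).

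Fasn took the most counts of the 9 genes in every library. It took 3.40% of all counts in P23 control replicate 2, where it was the 2nd most counted gene of the table, and 0.0687% in P26 control replicate 1. The 9 genes together took 0.120% to 4.24% of the counts of a library, and Fasn alone gave 43.4% to 81.8% of that sum. Per kilobase of annotated exon in P23 controls, Fasn stood at 2346 ± 1230 CPM (SD, n = 3) and Slc25a1 at 845 ± 464. Acly (327 ± 228 CPM per kilobase), Me1 (280.2 ± 159) and Aacs (242 ± 148) followed and did not differ beyond their spread. Nor did Acss2 (59.3 ± 34.4 CPM per kilobase), Acacb (53.8 ± 28.4) and Acaca (46.5 ± 24.7), while Elovl6 was last at 9.36 ± 9.86. In each of the 4 groups Fasn was first, Slc25a1 was the 2nd and Elovl6 was the last of the 9. The exon length is the union over all annotated transcripts, so it can understate the per-length level of genes with many isoforms, such as Acaca.

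**Figure D1:**
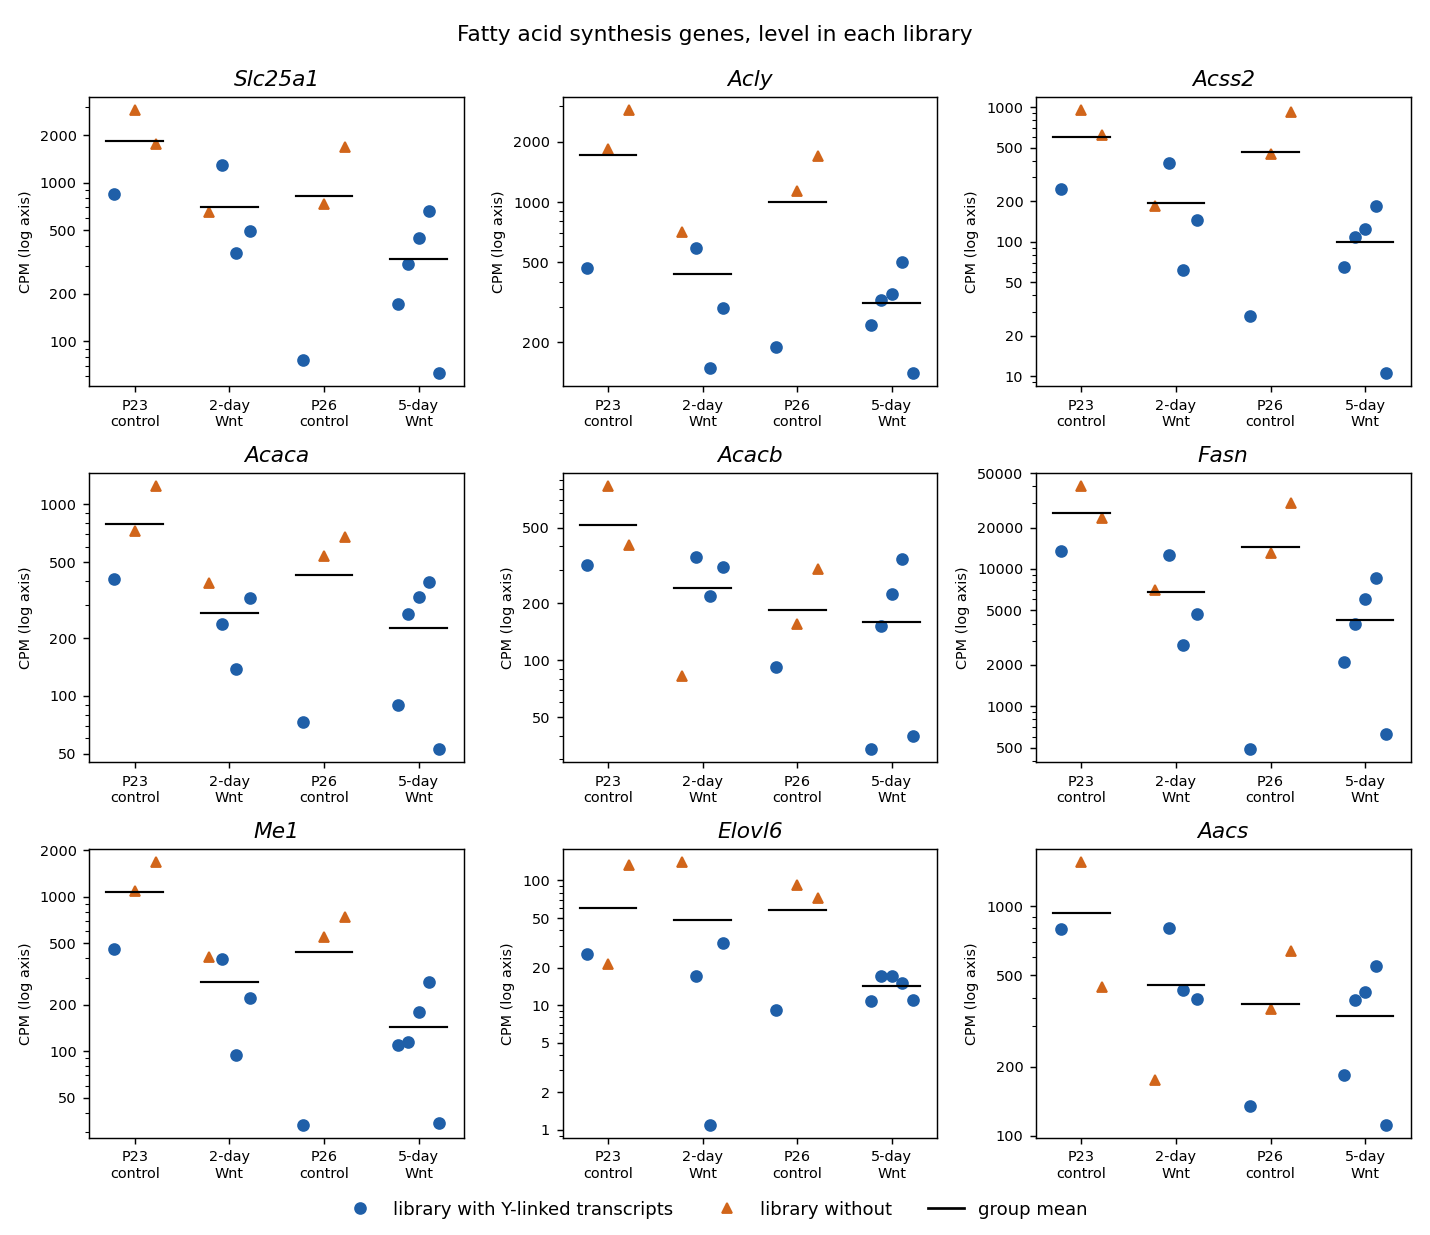
Level of each gene in each of the 15 libraries, in CPM on a log axis, by group. Circles are libraries with Y-linked transcripts, triangles are libraries without them and the line is the group mean. Fasn ranged from 488.5 CPM in P26 control replicate 1 to 40124 CPM in P23 control replicate 2, and the controls drawn as triangles lie above all 5-day libraries for Fasn, Acly, Acss2, Acaca, Me1, Slc25a1 and Elovl6.

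Fasn and Slc25a1 kept the most constant ratio to each other of any pair among the 9 over the 15 libraries, and the 250 bases before the start of each are therefore shown. The sequences are those of RefSeq on GRCm38.p6, read on the strand of the gene, and end at the base before the annotated start. For Fasn the window is chr11:120824548-120824797 on the minus strand, and for Slc25a1 it is chr16:17928220-17928469 on the minus strand. Capitals mark the CCAAT box (CCAAT, or ATTGG where it lies on the other strand), the sequence ATCACCC in Fasn and the E-box CACGTG in Slc25a1.
Fasn: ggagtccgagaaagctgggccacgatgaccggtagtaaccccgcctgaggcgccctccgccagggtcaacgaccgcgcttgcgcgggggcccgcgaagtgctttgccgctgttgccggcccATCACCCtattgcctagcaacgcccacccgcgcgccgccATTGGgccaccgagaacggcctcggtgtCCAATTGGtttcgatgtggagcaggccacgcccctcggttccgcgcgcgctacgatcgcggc
Slc25a1: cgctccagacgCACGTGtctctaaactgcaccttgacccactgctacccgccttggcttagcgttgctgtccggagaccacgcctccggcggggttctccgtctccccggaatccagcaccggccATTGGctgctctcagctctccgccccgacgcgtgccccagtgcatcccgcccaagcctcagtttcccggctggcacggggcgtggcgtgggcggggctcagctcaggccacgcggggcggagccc
In the Fasn window the run CCAATTGG holds a CCAAT box on each strand, and these 2 matches overlap. All motifs were searched on both strands of the 250 bases in 32851 RefSeq promoters, 10 of which belong to the 9 genes, those of Acaca and Acacb and 1 of the 2 of Me1 lying before internal starts. A CCAAT box lay in 5 of the 10, the internal windows of Acacb and Me1 among them, and in 33.8% of all promoters, and the GC box GGGCGG, not capitalised here, in 4 of the 10 and in 32.7% of all. CACGTG, the core of elements bound by ChREBP and USF factors, was in Slc25a1 alone of the 9 genes and in 6.02% of all promoters. ATCACCC, a sequence found in sterol regulatory elements and chosen after other results were seen, was in Fasn alone of the 9 genes and in 2.28% of all. The TCF/LEF core CTTTGAT was in 0 of the 10 and in 3.21% of all. A match is a description of these letters and not evidence of binding.

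The first 3 members supply the cytosol with citrate or acetyl-CoA. Slc25a1 (ENSMUSG00000003528, GRCm38 chromosome 16, 17925223 to 17928219, minus strand), the citrate carrier gene, stood at 854, 2861 and 1769 CPM in the P23 controls and at 657, 1302, 358 and 499 CPM at 2 days. One 2-day library, replicate 2, lay above P23 control replicate 1, and the other three lay below all P23 controls. In mice of day 26 the control values were 76.4, 733 and 1679 CPM and the 5-day values 172, 308, 447, 664 and 62.9 CPM. All 5-day libraries lay below P26 control replicates 2 and 3, and 4 of the 5 lay above P26 control replicate 1. The group means were 1828 ± 1005 CPM (SD, n = 3) and 704 ± 417 (n = 4) at day 23, and 829.3 ± 806 (n = 3) and 331 ± 235 (n = 5) at day 26. The log2 fold change in edgeR came to -1.38 ± 0.80 (SE) after 2 days, -1.33 ± 0.75 after 5 and -1.35 ± 0.55 averaged over both (adjusted p = 0.533 for the average).

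Acly (ENSMUSG00000020917, chromosome 11, 100476353 to 100528000, minus strand), which encodes ATP citrate lyase, had the smallest p of the 9 genes. It stood at 469, 1842 and 2867 CPM in the P23 controls and at 706, 592, 148 and 295 CPM at 2 days. Replicates 1 and 2 at 2 days lay above P23 control replicate 1, so the groups overlapped. At the later age the control values were 188, 1135 and 1693 CPM and the 5-day values 244, 325, 349, 502 and 139.8 CPM, again with 4 of 5 libraries above P26 control replicate 1 and all below the other two controls. The means were 1726 ± 1203 CPM (SD, n = 3) and 435 ± 258 (n = 4) at day 23 and 1006 ± 761 (n = 3) and 312 ± 134 (n = 5) at day 26. Its log2 fold change reached -1.99 ± 0.69 (SE) after 2 days and -1.69 ± 0.64 after 5, and the average, -1.84 ± 0.47, corresponded to a level 3.57-fold lower, with an edgeR adjusted p of 0.312. DESeq2 called Acly in the average (log2 fold change -1.81, adjusted p = 0.0116), the only call of a member by edgeR, DESeq2 or weighted limma-voom in any comparison. In the average DESeq2 called 348 of the 21644 genes it fitted, 84 of them lower, and it called 307 between the control groups.

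Acss2 (ENSMUSG00000027605, chromosome 2, 155517948 to 155585724, plus strand), the cytosolic acetyl-CoA synthetase gene, stood at 246, 945 and 618 CPM in the P23 controls and at 183, 386, 61.1 and 146 CPM at 2 days. Only replicate 2 at 2 days exceeded the lowest P23 control. The P26 control values were 28.1, 447 and 912 CPM and the 5-day values 64.7, 109, 125, 185 and 10.5 CPM. All 5-day libraries lay below P26 control replicates 2 and 3, and 4 of them lay above replicate 1. Its log2 fold change reached -1.64 ± 0.91 (SE) after 2 days and -2.23 ± 0.85 after 5, the lowest value of any of the 9 genes, and averaged -1.93 ± 0.62 (edgeR adjusted p = 0.482). Acss2 overlaps Ggt7, Acss2os and Gss on the opposite strand. Each of these stayed at or below 81.8 CPM, and whether counting used strand is not given in the sources used here.

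Acaca and Acacb encode the acetyl-CoA carboxylases. Acaca (ENSMUSG00000020532, chromosome 11, 84129672 to 84401651, plus strand), whose cytosolic product makes the malonyl-CoA used by fatty acid synthase, stood at 409.9, 728 and 1245 CPM in the P23 controls. At 2 days it stood at 387, 238, 139 and 325 CPM, and no 2-day library reached the lowest control. Controls of day 26 had values of 73.5, 539 and 673 CPM and 5-day libraries values of 89.5, 269, 327, 393.1 and 52.9 CPM, with P26 control replicate 1 inside the range of the 5-day libraries. The means were 794 ± 421 CPM (SD, n = 3) and 272 ± 108 (n = 4) at day 23 and 429 ± 315 (n = 3) and 226 ± 149 (n = 5) at day 26. The log2 fold changes were -1.54 ± 0.69 (SE) at 2 days and -0.92 ± 0.65 at 5 days, with an average of -1.23 ± 0.47 (edgeR adjusted p = 0.488).

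Acacb (ENSMUSG00000042010, chromosome 5, 114146535 to 114250761, plus strand), whose product makes malonyl-CoA that restrains fatty acid entry into mitochondria, differed less. It stood at 318, 831 and 406 CPM in the P23 controls and at 82.6, 351, 218 and 310.4 CPM at 2 days. In mice of day 26 the control values were 92.3, 156 and 305 CPM and the 5-day values 34.1, 153, 225, 341.4 and 40.0 CPM. The 5-day libraries spanned the whole control range and beyond it on both sides. Its log2 fold change reached -1.11 ± 0.69 (SE) after 2 days, -0.22 ± 0.66 after 5 and -0.66 ± 0.48 in the average (edgeR adjusted p = 0.846). The value at 5 days turned to 0.35 without P26 control replicate 3, to 0.04 without 5-day Wnt replicate 1 and to 0.05 without 5-day Wnt replicate 5. The Acacb to Acaca ratio of counts within a library ran from 0.213 in 2-day Wnt replicate 1 to 1.57 in 2-day Wnt replicate 3. It was 0.327 to 1.14 in P23 controls, 0.290 to 1.26 in P26 controls and 0.381 to 0.869 at 5 days, so the groups overlapped.

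Fasn (ENSMUSG00000025153, chromosome 11, 120805846 to 120824547, minus strand) stood at 13473, 40124 and 23438 CPM in the P23 controls and at 6979, 12656, 2787 and 4678 CPM at 2 days. No 2-day library reached the lowest P23 control. At the later age the control values were 488.5, 13057 and 30049 CPM and the 5-day values 2087, 3957, 6072, 8615 and 627 CPM. P26 control replicate 1 held less Fasn than any 5-day library, and the other two P26 controls held more than any. The means were 25678 ± 13466 CPM (SD, n = 3) and 6775 ± 4279 (n = 4) at day 23 and 14532 ± 14835 (n = 3) and 4272 ± 3173 (n = 5) at day 26. The average log2 fold change over both ages was -1.84 ± 0.64 (SE), a level 3.59-fold lower (edgeR adjusted p = 0.482). Set against Adipoq, which was itself at 369.7 CPM in P26 control replicate 1, the ratio of Fasn to Adipoq counts was 3.71, 7.94 and 9.61 in the P23 controls and 4.97, 3.16, 0.909 and 1.03 at 2 days. It was 1.32, 3.90 and 5.71 in the P26 controls and 1.36, 1.41, 1.94, 2.68 and 0.869 at 5 days. By this ratio 2-day replicate 1 lay above the lowest P23 control, and 4 of the 5-day libraries lay above P26 control replicate 1, while all 5 lay below the other P26 controls.

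Me1 (ENSMUSG00000032418, chromosome 9, 86581371 to 86695953, minus strand), the cytosolic malic enzyme gene, stood at 461, 1089.6 and 1684 CPM in the P23 controls and at 410.3, 395, 95.5 and 223 CPM at 2 days. The day 23 groups did not overlap. The P26 control values were 33.6, 549 and 735 CPM and the 5-day values 110.0, 115, 179.7, 282 and 34.6 CPM. As for Fasn, P26 control replicate 1 held less than any 5-day library and the other two controls more than any. Its log2 fold change reached -1.94 ± 0.79 (SE) after 2 days, -1.60 ± 0.74 after 5 and -1.77 ± 0.54 in the average (edgeR adjusted p = 0.461). Me1 overlaps A330041J22Rik on the opposite strand, a gene of at most 36.4 CPM.

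Elovl6 (ENSMUSG00000041220, chromosome 3, 129532355 to 129638495, plus strand), which encodes the elongase that takes palmitate to stearate, was the least abundant of the 9 per kilobase and the one that varied most at 2 days. It stood at 25.9, 21.4 and 133 CPM in the P23 controls and at 141, 17.2, 1.10 and 31.8 CPM at 2 days. The 2-day libraries held both the highest and the lowest value of all 15, a range of 128-fold. Controls of day 26 had values of 9.15, 92.8 and 71.8 CPM and 5-day libraries values of 10.8, 17.3, 17.2, 15.1 and 11.1 CPM. The 5-day libraries lay close together, above P26 control replicate 1 and below the other two. Its log2 fold change reached -0.33 ± 1.04 (SE) after 2 days, -2.02 ± 0.98 after 5 and -1.18 ± 0.71 in the average (edgeR adjusted p = 0.753). The value at 2 days turned to 0.96 without P23 control replicate 3 and to 0.07 without 2-day Wnt replicate 3. With the sample sheet's grouping, which places 2-day Wnt replicate 1 among the P23 controls, it was -2.27, the lowest of the 9 genes. The highest Elovl6 value was in the library with the most hair follicle marker transcripts, and whether these are linked was not tested.

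Aacs (ENSMUSG00000029482, chromosome 5, 125475814 to 125517410, plus strand), whose product activates acetoacetate, a ketone body, for lipid synthesis, stood at 792, 1561 and 444 CPM in the P23 controls and at 175, 806, 431 and 395 CPM at 2 days. In mice of day 26 the control values were 135, 356 and 638 CPM and the 5-day values 184, 392, 425, 550.3 and 112 CPM. The groups overlapped at both ages, and at day 26 the Wnt and control values interleaved. Its log2 fold change reached -1.05 ± 0.62 (SE) after 2 days, -0.18 ± 0.59 after 5 and -0.61 ± 0.43 in the average, the smallest of the 9 genes (edgeR adjusted p = 0.826). The value at 5 days turned to 0.44 without P26 control replicate 3 and to 0.06 without 5-day Wnt replicate 5.

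In edgeR with all libraries, all 9 genes had negative log2 fold changes at 2 days, at 5 days and in the average, and none passed the threshold. Other settings turned some of these signs. Elovl6 at 2 days was 0.63 when libraries were scaled to their adipocyte markers, up to 0.96 when single libraries were left out and 0.0057 with the Y-linked level as a covariate. That covariate also turned 8 of the 9 genes above 0 at 5 days and Elovl6 to 0.03 in the average. Acacb and Aacs at 5 days turned positive without single libraries, as given above, and Aacs with the replicate number as a block (0.0044). The comparisons at 2 and 5 days share no library. At 2 days 8 of the 9 were below -1, against 9.21% of the 16935 genes tested, with a median of -1.54 against 0 over all genes. At 5 days 6 of the 9 were below -1, against 11.9% of all genes, with a median of -1.60 against 0.03. In the average 7 of the 9 were below -1, against 6.9% of all genes, with a median of -1.35 against 0.02. The 9 genes were chosen with earlier results of these data known, so these shares are a description and not a test. The counts below -1 depended on the setting. Without P23 control replicate 2 the count at 2 days was 5, and with the sample sheet's grouping it was 7. The values under that grouping ran from -2.27 for Elovl6 to -0.45 for Aacs. Without P26 control replicate 3 the count at 5 days was 4, against 14.2% of all genes. The median of the 9 was then -0.66, with 7 of them below 0. Without P26 control replicate 1 the count at 5 days was 7, against 10.7% of all genes, with a median of -2.14. Scaled to adipocyte markers, 4 of the 9 were below -1 in each of the 3 comparisons, against 6.67% of all genes at 2 days, 18.9% at 5 days and 6.68% in the average. The medians of the 9 were then -0.89, -0.999 and -0.80, against 0.55, 0.03 and 0.29 over all genes. By this scaling the value at 2 days was -1.27 for Fasn, -1.26 for Acly and Me1, -1.03 for Acss2 and -0.89 for Acaca. Slc25a1 (-0.76), Acacb (-0.70) and Aacs (-0.57) followed. With the Y-linked covariate 2 of the 9, Fasn and Me1, were below -1 at 2 days and 0 at 5 days and in the average, against 13.7%, 14.9% and 10.4% of all genes. By edgeR's Benjamini-Hochberg adjusted p, 0 of the 9 and 0.0% of all genes were called in each of these comparisons. The adjusted p of the 9 genes was 0.919 to 1.00 at 2 days, 0.695 to 0.999 at 5 days and 0.312 to 0.846 in the average. At an unadjusted p under 0.05 there were 3 lower members at 2 days (Acly, Me1 and Acaca) against 2.2% of all genes (5.17% in either direction), and 3 at 5 days (Acly, Acss2 and Me1) against 3.04% (7.06% in either direction). The average had 6 (Acly, Me1, Acss2, Fasn, Acaca and Slc25a1) against 2.78% (7.85% in either direction). Weighted limma-voom called 0 members, against 0 genes at 2 days, 226 at 5 days and 11 in the average. DESeq2 called Acly alone among the members, in the average, where it called 348 of 21644 genes.

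Among the 2-day libraries every value was below every P23 control for 3 members, Acaca, Fasn and Me1, against 2.91% of all genes with that pattern. By the sample sheet's grouping, an alternative added after the data were seen, it held for 2, Acaca and Me1 (2.14% of all genes), and with size factors by relative log expression for 2, Fasn and Me1 (2.63%). At 5 days this held for 0 members, against 2.25% of all genes, since P26 control replicate 1 lay below at least 3 of the 5-day libraries for each member. With size factors that equalise the adipocyte markers between libraries, which moved the median log2 fold change of all genes to 0.55 at 2 days, 0 members were separated at 2 days, against 0.933% of all genes, and 2, Acly and Elovl6, at 5 days, against 0.461%.

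**Figure D2:**
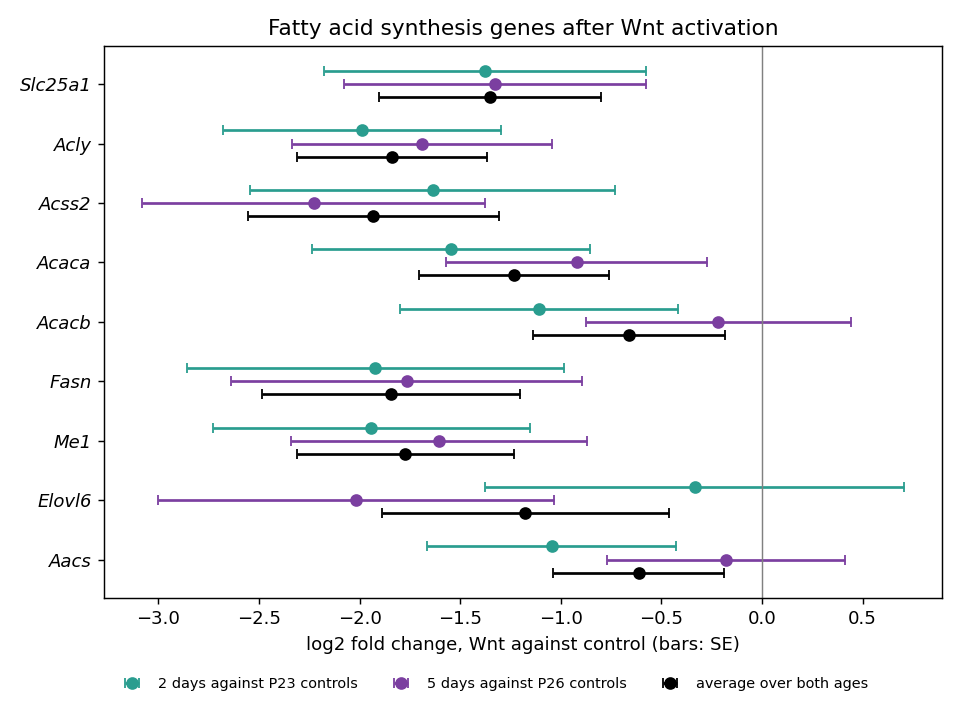
Log2 fold change of each gene against the controls of the same age, with the SE as bars, at 2 days, at 5 days and averaged over both, in edgeR with all libraries. All points lie below 0, from -2.23 for Acss2 at 5 days to -0.18 for Aacs at 5 days, and the SE bars of Acacb, Elovl6 and Aacs cross 0 in 1 comparison each.

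The effects at 5 and at 2 days were compared directly. The difference ranged from -1.68 ± 1.45 (SE) for Elovl6 to 0.89 ± 0.97 for Acacb on the log2 scale. Aacs (0.87 ± 0.86) and Acaca (0.62 ± 0.96) were also less negative at 5 days, and Acss2 (-0.59 ± 1.25) was more negative. None of the 9 had an unadjusted p under 0.05, against 5.72% of all genes, and 0 of the 9 and 0.0% of all genes were called by edgeR (adjusted p = 1.00 for each member). The data therefore do not separate the responses at the 2 times, with SEs of 0.86 to 1.45 on the log2 scale.

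Control mice of the 2 ages were also compared. All 9 genes were lower in P26 than in P23 controls, by a log2 difference of -0.06 ± 1.12 (SE) for Elovl6 to -1.49 ± 0.76 for Acacb. Their median was -0.89, against -0.01 over all genes. Of the 9, 4 were below -1, a share that is not given here for all genes. None had an unadjusted p under 0.05, against 6.98% of all genes, and edgeR called 0 of the 9 and 0.0% of all genes. Without P26 control replicate 1 the values of Acss2 and Elovl6 turned to 0.15 and 0.42.

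Within the libraries that held Y-linked transcripts, Fasn stood at 13473 CPM in the only P23 control and at 2787 to 12656 CPM in 3 libraries at 2 days. At day 26 it stood at 488.5 CPM in the only control with Y-linked transcripts and at 627 to 8615 CPM in the 5 Wnt libraries. Among libraries without them, Fasn stood at 23438 and 40124 CPM in P23 controls and at 6979 CPM in the 1 library of this kind that is labelled 2-day Wnt, whereas no 5-day library was without them. For Fasn the libraries labelled Wnt were thus below the controls of day 23 in both kinds, as they also were for Acaca and Me1. For the other 6 members at least 1 of the 3 2-day libraries with Y-linked transcripts lay above P23 control replicate 1. Acly stood at 469 CPM in that control and at 148 to 592 CPM in these libraries, and Slc25a1 at 854 CPM and at 358 to 1302 CPM. Among libraries without Y-linked transcripts, 2-day Wnt replicate 1 lay below the P23 controls for each of these 6 members except Elovl6. At day 26 the only control with Y-linked transcripts was P26 control replicate 1, the library poorest in adipocyte markers. Acly stood at 188 CPM there and at 139.8 to 502 CPM in the Wnt libraries of that age. With the log2 Y-linked level as a covariate, the log2 fold changes at 2 days ran from -1.04 (Fasn) to 0.01 (Elovl6), with 8 of 9 below 0. At 5 days 8 of 9 were above 0, from 0.05 (Elovl6) to 0.39 (Acaca), and Acss2 was at -0.30. The average over both ages then ran from -0.49 (Fasn) to 0.03 (Elovl6), and the lowest edgeR adjusted p was 0.964. At 5 days activation and the sex-linked division cannot be told apart, except through P26 control replicate 1.

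**Figure D3:**
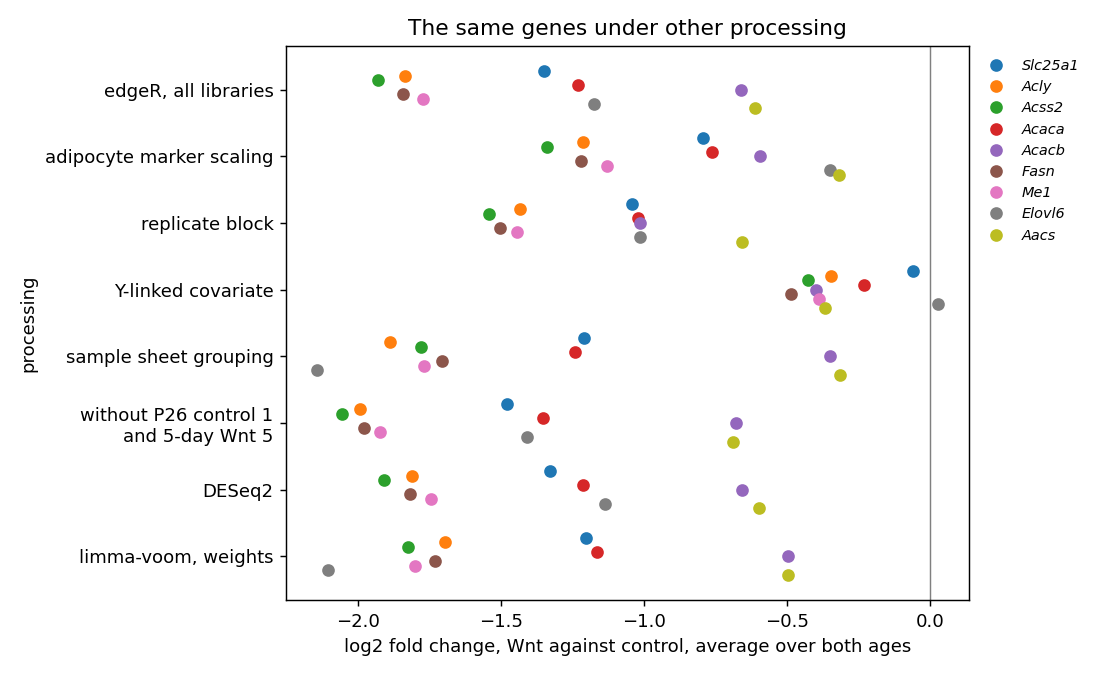
Log2 fold change of each gene, averaged over both ages, under 8 ways of processing the same counts, 1 colour per gene. Points lie left of 0 under all of them except Elovl6 at 0.03 with the Y-linked covariate, where the other 8 lie between -0.49 and -0.06, against -1.93 to -0.61 in edgeR with all libraries.

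The levels of several members varied together from library to library. This was described by the SD over the 15 libraries of the log2 ratio of 2 genes (on CPM with a prior count of 2), which is small when 2 genes keep a constant ratio. The median over the 36 pairs was 0.91. Fasn and Slc25a1 had the smallest value, 0.42, so that Fasn varied 82.1-fold between libraries and Slc25a1 45.5-fold while their ratio stayed much closer. Fasn and Acss2 followed with 0.43, Me1 and Slc25a1 with 0.49 and Fasn and Me1 with 0.51. Acacb and Aacs kept to each other, with 0.54, more closely than either kept to Fasn, with 1.18 and 1.15. Acly was closest to Acaca, with 0.59. Elovl6 kept to none of the others, with 1.15 or more in every pair and 2.00 with Acacb. After the group means were removed the values for Fasn with Slc25a1 and with Acss2 were 0.40 and 0.34, so the likeness was also present between libraries of the same group. The libraries share their depth and their share of adipocyte RNA in all these pairs.

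**Figure D4:**
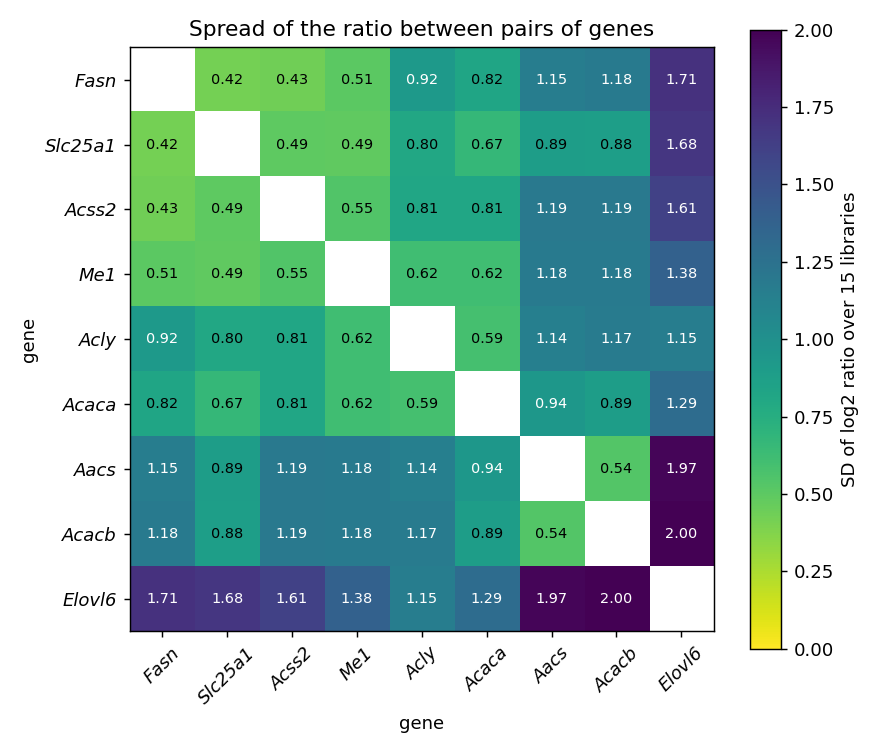
SD over 15 libraries of the log2 ratio of each pair of genes, printed in each cell and shown as colour (yellow is a constant ratio). Fasn, Slc25a1, Acss2 and Me1 form a block of values from 0.42 to 0.55, Acacb and Aacs pair with 0.54, and the row of Elovl6 holds values from 1.15 to 2.00.

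By the same measure 11847 genes (mean log2 CPM 1 or more) were ranked for likeness to Fasn. Slc25a1 was the 1st, Acss2 the 2nd and Me1 the 6th, whereas Acaca was at rank 26, Acly at 36, Aacs at 167, Acacb at 197 and Elovl6 at 2890. The 5 genes most like Fasn outside the 9 were Slc25a10, Agpat2, Thrsp, Pnpla3 and Gm11788. Slc25a10 (0.48; chromosome 11, 120491840 to 120499187, plus strand) encodes the mitochondrial dicarboxylate carrier. Agpat2 (0.50; chromosome 2, 26593057 to 26604417, minus strand) encodes an acyltransferase of triglyceride synthesis. Thrsp (0.50; chromosome 7, 97412938 to 97417730, minus strand) encodes Spot 14, a protein linked to lipogenesis. Pnpla3 (0.60; chromosome 15, 84167837 to 84187236, plus strand) encodes a lipid droplet protein. Gm11788 (0.60; chromosome 11, 120489406 to 120492394, minus strand) overlaps the start of Slc25a10 on the opposite strand, so their reads cannot be told apart without the strand setting.

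Other genes of the pathway had mostly negative log2 fold changes in the average over both ages, and edgeR called 0 of them. Over all genes the median was 0.02, and 2.78% were lower with an unadjusted p under 0.05. The adipocyte markers were lower in 8 of 8 cases, with a median of -0.34. Among the genes that bring glucose carbon to citrate, 8 of 8 were lower and 5 of these had an unadjusted p under 0.05, with a median of -0.78. They included the insulin-responsive glucose transporter gene Slc2a4 (-1.26 ± 0.35, SE), the pyruvate dehydrogenase subunit genes Dlat (-0.80 ± 0.26) and Pdhb (-0.79 ± 0.33) and the mitochondrial pyruvate carrier gene Mpc2 (-0.73 ± 0.33). Genes of NADPH supply were lower in 6 of 6 cases, 2 with an unadjusted p under 0.05, with a median of -0.75. The pentose phosphate pathway genes Tkt and Pgd stood at -1.47 ± 0.46 and -1.32 ± 0.48, G6pdx at -0.90 ± 0.44 and the isocitrate dehydrogenase gene Idh1 at -0.47 ± 0.25. Without activation, in P26 against P23 controls, the glucose carbon genes were also lower in 8 of 8 cases, with a median of -0.96. The NADPH genes were lower there in 5 of 6 cases, with a median of -0.35.

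Of 4 genes whose products modify or activate the enzymes, 4 were lower and 2 had an unadjusted p under 0.05, Mid1ip1 (-0.81 ± 0.28, SE), which promotes polymerisation of acetyl-CoA carboxylase, and Thrsp (-1.16 ± 0.50). Genes that put fatty acids into triglyceride were lower in 6 of 6 cases, 4 with an unadjusted p under 0.05, with a median of -1.04. Dgat2, of the last step of triglyceride synthesis, stood at -1.31 ± 0.48, Gpam, of the first, at -1.17 ± 0.32, the acyl-CoA synthetase gene Acsl1 at -0.99 ± 0.37 and the phosphatidate phosphatase gene Lpin1 at -0.88 ± 0.35. Desaturation and elongation genes were lower in 7 of 9 cases, with a median of -0.65. The stearoyl-CoA desaturase gene Scd1 stood at -1.03 ± 0.57, and Tecr (-0.80 ± 0.35) and Hsd17b12 (-0.77 ± 0.35), both of the elongation cycle, had an unadjusted p under 0.05. Mitochondrial fatty acid synthesis, a separate pathway, was lower in 5 of the 6 genes tested, with a median of -0.47, and Oxsm (-0.69 ± 0.30) had an unadjusted p under 0.05. Between the controls, triglyceride genes were lower in P26 in 6 of 6 cases (median -0.86) and mitochondrial synthesis genes in 5 of 6 (-0.70). The genes that modify or activate the enzymes were lower there in 3 of 4 cases (-0.18), and desaturation and elongation genes in 5 of 9 (-0.18).

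Transcriptional regulators stood nearer to 0. Of 10 genes 6 were lower and 4 higher, 0 had an unadjusted p under 0.05 and the median was -0.23. Srebf1, which encodes SREBP1, stood at -0.63 ± 0.40 (SE), Mlxipl, which encodes ChREBP, at -0.41 ± 0.41, and Insig1, itself a target of SREBPs, at -0.88 ± 0.44. Genes of energy sensing and of malonyl-CoA removal were lower in 6 of 7 cases with a median of -0.06. The exception was Cpt1a, the carnitine palmitoyltransferase gene of fatty acid oxidation, at 0.53 ± 0.24 with an unadjusted p under 0.05. At 5 days Cpt1a stood at 42.4 to 68.5 CPM, against 20.9 to 42.9 CPM in P26 controls, with an overlap of less than 1 CPM. The smallest edgeR adjusted p in the average among these lists was 0.355, for Gpam. Between the controls, the regulators were lower in P26 in 9 of 10 cases (median -0.42) and the energy sensing genes in 4 of 7 (-0.17). None of these lists was compared with other genes by a test of the list. The lists were counted only in edgeR with all libraries, so their dependence on the scaling and on the sex-linked division was not tested.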

How the data were processed

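RNA was measured in 15 libraries of isolated adipocytes, with the Universal Plus mRNA-SEQ kit per the labels' protocols. The table holds raw counts per gene, as the authors deposited them, for 35373 genes. Tools listed in the submitters' processing notes are DESeq2 1.40.1, Cufflinks 2.2.1, SAMtools 1.9 and Trimmomatic 0.39, with GRCm38 (mm10) as the build. Which aligner and counter were used, and whether strand was, is not given in the sources used here, so overlapping genes on opposite strands are uncertain. Gene positions are those of the table and are the same in GENCODE M21 for all 9 genes.

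Genes were kept with filterByExpr by group (16935 kept, 18438 removed, all 9 members kept) and normalized by the trimmed mean of M values. A 4-group model over all 15 libraries was fitted with edgeR's robust quasi-likelihood test (edgeR 4.0.16, R 4.3.3), two-sided, with Benjamini-Hochberg adjustment over all genes and a threshold of 0.05. The average is the mean of the 2-day and 5-day effects. P-values measure the spread between replicates labelled as biological. Totals were 11383421 to 38501753 counts per library, and no 2 libraries were identical. The script was tested on simulated counts with the same spread for all genes and changes at 5 days only. That test does not show how large a change could be found at the spread between these libraries. Alternatives were DESeq2 1.42.0, limma-voom with sample weights (limma 3.58.1), other size factors and filters, a replicate block, a Y-linked covariate, the grouping of the deposited sample sheet and the omission of single libraries and pairs of them.

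The members and lists were chosen with earlier results of these data known. Named were the 9 members, up to 4 genes per list with the smallest p in the average, the 5 other genes most like Fasn and the check genes. Motif searches used Python 3.11.15.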

Additional observations from a re-analysis of the deposited data

How the results depend on the processing

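In no edgeR setting was a member called in any comparison. DESeq2 called 1 member (Acly, in the average) and 156 genes at 2 days, 226 at 5 days, 348 in the average, 163 in the difference and 307 between controls, where edgeR called 0. Weighted limma-voom called 0, 226, 11, 0 and 134 genes in the same order. Without P26 control replicate 1 and 5-day Wnt replicate 5, edgeR called 4 genes at 5 days, 2 in the average and 1 in the difference, and without 2-day Wnt replicate 1 and P26 control replicate 1 it called 4 at 5 days and 1 in the average. Leaving out single libraries gave 0 to 4 genes at 5 days, 0 to 3 in the average, 0 to 2 in the difference and 0 to 5 between controls. With the replicate number as a block, 5 genes were called between controls and 0 elsewhere, Aacs at 5 days turned to 0.0044 and Elovl6 between controls to 0.14. Deviations from the group means of samples of the same number had correlations of -0.10 to 0.17, with 5 of 19 pairs over 0.1. Those of different numbers had correlations of -0.21 to 0.21. Whether samples of the same number were more alike than others was not tested, and the numbers were not taken to pair samples. Scaled to adipocyte markers, 0 members were separated from controls at 2 days and 2 at 5 days (0.933% and 0.461% of all genes), against 3 and 0 (2.91% and 2.25%) in the reported scaling. Relative log expression and, added after the data were seen, the sample sheet's grouping gave 2 at 2 days (2.63% and 2.14% of all genes) and 0 at 5 days. Scaled to adipocyte markers Elovl6 was 0.63 at 2 days and 0.21 between controls, and Slc25a1 -0.063 in the difference. With the Y-linked covariate Elovl6 was 0.0057 at 2 days and 0.026 in the average. At 5 days it gave 0.18 for Acly, 0.39 for Acaca, 0.072 for Acacb, 0.070 for Fasn, 0.25 for Me1, 0.34 for Slc25a1, 0.046 for Elovl6 and 0.12 for Aacs, and in the difference 0.25 for Acss2 and 0.040 for Elovl6. Weighted limma-voom turned the difference of Acly to -0.23, of Me1 to -0.0034 and of Slc25a1 to -0.19, and the control comparison of Acly to 0.23, of Acss2 to 0.29 and of Elovl6 to 0.85. With the sample sheet's grouping the difference was -0.12 for Fasn, -0.23 for Slc25a1 and 0.25 for Elovl6. Without P26 control replicate 1 and 5-day Wnt replicate 5 the difference was -0.11 for Fasn and -0.20 for Slc25a1, and the control comparison 0.17 for Acss2 and 0.43 for Elovl6. Without 2-day Wnt replicate 1 and P26 control replicate 1 these were -0.38, -0.51, 0.15 and 0.42. Leaving out single libraries moved Elovl6 at 2 days from -1.86 to 0.96, Acacb at 5 days from -0.71 to 0.35 and Aacs at 5 days from -0.56 to 0.44. The difference then ran from -0.39 to 1.26 for Fasn, -0.47 to 1.09 for Slc25a1, -0.24 to 0.90 for Acly, -0.18 to 0.93 for Me1 and -1.12 to 0.37 for Acss2, and the control comparison from -1.34 to 0.15 for Acss2 and -0.60 to 1.25 for Elovl6. In the average, leaving out single libraries kept all 9 members below 0, with Acly at -2.08 to -1.54 and Fasn at -2.12 to -1.29. The causes of these changes were not tested. The lowest count of a member was 29, and groups held 3 to 5 libraries.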

Other observations

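Ratios of counts within a library, which do not depend on its scaling, show where the members parted. Acly, which makes acetyl-CoA from citrate, and Acss2, which makes it from acetate, stood at a ratio of 13.3 in 5-day Wnt replicate 5 and of 6.70 in P26 control replicate 1, the libraries with the lowest adipocyte marker sums. In the other 13 libraries the ratio was 1.53 to 4.64. At day 23 it was 1.91, 1.95 and 4.64 in the controls and 3.87, 1.53, 2.43 and 2.03 at 2 days, so the groups overlapped. At day 26 it was 2.54 and 1.86 in P26 control replicates 2 and 3. The 5-day Wnt replicates 1 to 4 lay above these, at 3.77, 2.99, 2.80 and 2.71, and below P26 control replicate 1. The ratio of Fasn to Acacb was 42.4, 48.3 and 57.7 in the P23 controls and 84.5, 36.0, 12.8 and 15.1 at 2 days. It was 5.29, 83.6 and 98.6 in the P26 controls and 61.2, 25.9, 26.96, 25.2 and 15.7 at 5 days. At day 26 all Wnt libraries lay between P26 control replicate 1 and the other controls, and at day 23 the groups overlapped through the library labelled 2-day Wnt replicate 1.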
